A study of Mus musculus with 2 samples.

Results

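Xcl1 encodes lymphotactin, the chemokine XCL1, and Xcr1 encodes XCR1, its G protein-coupled receptor. Both genes were picked by symbol, 2 of the 55357 genes counted in each library, and they were chosen with earlier results known, namely their CPM (a gene's UMIs over all UMIs, scaled to a common total) and the share of cells that carry them in the treated and PBS libraries. Differences between the libraries in these genes are therefore given as descriptions, with no test. Single-cell RNA sequencing on the 10x Genomics platform was done on lungs of female BALB/c mice with orthotopic K7M2 osteosarcoma, a mouse bone tumour line that spreads to the lung. The groups were mice given 1V209-Cho-Lip, a nanomedicine form of a TLR7 agonist per the series title, and mice given PBS. Each group was 1 library from lungs of 3 pooled mice, all of them tumour-bearing, and mouse age, dose, route and time after treatment were not given in the sources used here. With 1 library per group, a treatment response, a difference between pools of mice and a difference between library preparations cannot be told apart, and none of the values has a replicate check. All intervals are exact 95% intervals (Poisson for a level, Clopper-Pearson for a share, conditional binomial for a ratio) and cover counting error only.

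NK cells and CD8 T cells are the known producers of XCL1, which they release together with other chemokines and cytokines when activated. Its receptor is known as a mark of conventional type 1 dendritic cells (cDC1), which take up dead cells, present their antigens to CD8 T cells and send cytokines back to lymphocytes. In mouse tumours, XCL1 made by NK cells is known to attract cDC1.

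Xcl1 (ENSMUSG00000026573) lies on the minus strand at chr1:164931644-164935527 in GRCm38 (mm10), with 3 exons, of which exon 1 holds the 5' UTR and exon 3 the 3' UTR. An antisense-strand gene, Gm20743, overlaps it in the annotation and had 9 UMIs (unique molecular identifiers, counts of captured RNA molecules) in the 1V209-Cho-Lip library and 12 in the PBS library. Xcr1 (ENSMUSG00000060509) lies on the minus strand at chr9:123852315-123862029, with 2 exons and no overlapping gene in GENCODE vM21. The bases just before each start site are shown because Xcl1 was lower in each lymphocyte class with over 10 of its UMIs, while the Xcr1 ratio in cDC1 had an interval that includes 1. A link between these bases and either level was not tested. They come from RefSeq (GRCm38.p6) and are written 5' to 3' on the gene's strand, for Xcl1 at chr1:164935528-164935772 and for Xcr1 at chr9:123862030-123862279. Capitals mark matches on either strand to 2 of 4 motifs searched, GGAAA (the core of NFAT sites) and TATAAA.
Xcl1: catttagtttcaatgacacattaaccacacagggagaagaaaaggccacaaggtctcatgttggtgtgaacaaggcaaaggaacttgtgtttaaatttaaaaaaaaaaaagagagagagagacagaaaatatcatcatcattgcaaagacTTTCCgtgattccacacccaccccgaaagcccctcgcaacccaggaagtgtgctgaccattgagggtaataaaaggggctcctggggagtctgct
Xcr1: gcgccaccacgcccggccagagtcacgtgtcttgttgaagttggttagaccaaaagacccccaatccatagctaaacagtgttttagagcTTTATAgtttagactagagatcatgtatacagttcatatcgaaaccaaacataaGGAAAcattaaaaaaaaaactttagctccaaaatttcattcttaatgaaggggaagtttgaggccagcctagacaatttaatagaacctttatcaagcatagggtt

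The Xcl1 window held 1 GGAAA match, on the opposite strand and 100 bases before the RefSeq start, and the Xcr1 window held 1 on its own strand at 106 bases. That motif is in 55.6% of 32851 promoter windows of 250 bases, so a match says little. TATAAA matched the Xcr1 window on the opposite strand, at 160 bases before the start, and is in 12.4% of windows. Neither window held TGANTCA (AP-1) or TTGCNNAA (C/EBP), which are in 6.75% and 9.56% of windows. These are letter matches and not measured binding sites.

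The deposited libraries held 13740 barcodes with 1V209-Cho-Lip and 14622 with PBS, and after filters and removal of called doublets 12265 and 12654 cells remained, with a median of 2506 and 2198 UMIs per cell. Among kept cells 210 barcode sequences were found in both libraries. The NK-like class carried Ncr1 UMIs in 88.8% of treated and 85.4% of PBS cells, and the cDC1-like class carried Clec9a UMIs in 68.6% and 76.1%. CD8 T-like cells carried Cd8a UMIs in 54.0% and 54.6%. These genes are among the markers that gave the classes their names, so they are no separate check of the names. The NK markers of the Klra family were rare in NK-like cells, with Klra4 in 6.51% of treated and 7.40% of PBS cells. Klra8 was in 0% and 0.154%, and Klra9 in 0.592% and 1.08%. The other NK markers were more common, from Klrb1c in 36.7% of treated and 29.1% of PBS cells to Gzma in 94.1% and 88.6%. Neutrophil markers differed between the libraries inside other classes too: in NK-like cells the 10 neutrophil markers summed to 2993 CPM with 1 at 0 in the treated library and to 365 CPM with none at 0 in PBS. In CD8 T-like cells they summed to 568 CPM in the treated library and 135 CPM in PBS, and in cDC1-like cells to 946 CPM in the treated library and 1100 CPM in PBS. NK markers summed to 43.9 CPM with 9 of 10 at 0 in treated and to 227 CPM with 2 at 0 in PBS cDC1-like cells, and the 9 B-cell markers to 84.6 CPM and 297 CPM there. The 7 erythroid markers were lower in treated lymphocytes, summing to 292 CPM with 2 at 0 in treated and 914 CPM with none at 0 in PBS NK-like cells, and to 18.7 CPM and 504 CPM in CD8 T-like cells with 1 at 0 in each. The part of these markers in the results below was not tested.

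Xcl1 was much scarcer in the lungs of treated mice, both in UMIs and in the number of cells that carried it. The 1V209-Cho-Lip library held 123 Xcl1 UMIs in 43 of 12265 cells (0.351%), and the PBS library 1550 UMIs in 249 of 12654 cells (1.97%). This is 2.67 CPM with 1V209-Cho-Lip and 33.4 CPM with PBS, a ratio of 0.0800 (0.0660 to 0.0962). Of 17451 genes with at least 50 UMIs, 5.56% had a ratio of 0.5 or less and 21, Xcl1 included, were as low as Xcl1 or lower. The median gene had a log2 ratio of -0.20 in the whole library, and relative to that shift the Xcl1 ratio was 0.0916. Fewer producing cells and less Xcl1 RNA per cell both enter the whole-library value. With each class weighted equally in both libraries the ratio was 0.195, and after thinning of each cell to 1000 UMIs it was 0.0512.

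Xcr1 differed far less. The treated library held 112 Xcr1 UMIs in 26 cells and the PBS library 128 UMIs in 43 cells, which is 2.43 CPM and 2.75 CPM, a ratio of 0.882 (0.678 to 1.15), with 6.31% of genes at 2 or more in the whole library. After thinning, which leaves few Xcr1 UMIs, the ratio was 1.43, and relative to the median gene it was 1.01 without thinning, so no direction can be read. The treated library had 0.605 Xcr1-carrying cells for each Xcl1-carrying cell and the PBS library 0.173, a ratio of 3.501 (2.07 to 5.83). That interval takes the numbers of Xcl1-carrying cells as fixed, so it leaves out their counting error and is too narrow. The ratio was 8.81 for cells with at least 2 UMIs and 11.9 after thinning. Among kept cells 0 treated and 1 PBS cell carried UMIs of both genes.

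NK-like and T-like classes held nearly all Xcl1 UMIs in both libraries, 93.5% (87.6 to 97.2%) with 1V209-Cho-Lip and 92.97% (91.6 to 94.2%) with PBS, although they were 10.2% of treated and 24.4% of PBS cells. NK-like cells alone held 62.6% with 1V209-Cho-Lip and 57.7% with PBS. Outside NK-like, T-like, mixed and unnamed clusters, 2 of 9176 treated cells (0.0218%) and 27 of 8142 PBS cells (0.332%) carried a UMI, at median depths of 2572 and 2114 UMIs per cell. B-like cells, which should lack the gene, had 0 of 650 treated cells, which allows a share of up to 0.462%, and 3 of 1438 PBS cells (0.209%). Neutrophil-like cells had 0 of 3833 treated cells, which allows up to 0.0783%, and 2 of 1360 PBS cells (0.147%). The shares in NK-like cells lie far above these background levels.

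**Figure D1:**
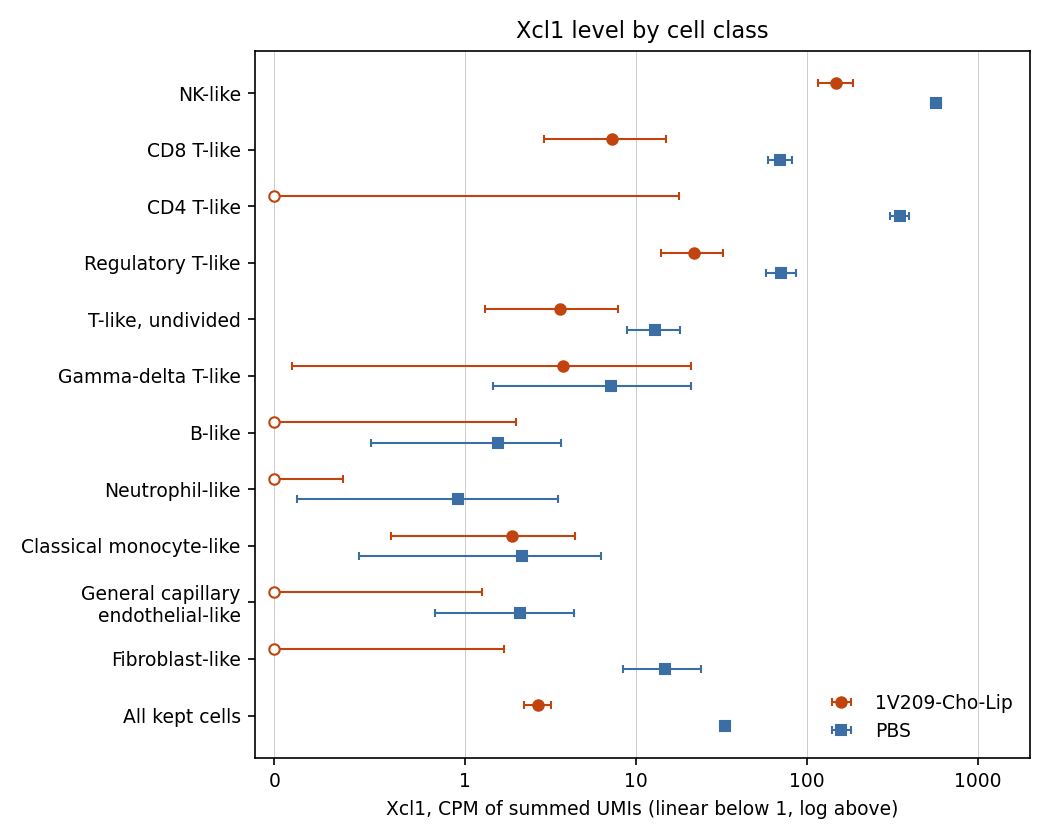
Xcl1 level (CPM of summed UMIs, axis linear below 1 and logarithmic above) in cell classes of the 1V209-Cho-Lip library (circles, open at 0) and the PBS library (squares), with exact Poisson 95% intervals, 1 library per group. NK-like cells were highest in both libraries, at 148 CPM with 1V209-Cho-Lip and 566 CPM with PBS, and the CD4 T-like PBS value rests mainly on 1 cell.

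The order of levels was led by NK-like cells in both libraries. In the treated library NK-like cells (148 CPM, 117 to 185) were followed by regulatory T-like cells (21.8 CPM, 14.0 to 32.4) and CD8 T-like cells (7.27 CPM, 2.92 to 14.97), whose intervals overlap each other but not that of NK-like cells. Each of these 2 levels rests on 1 cell: 18 of the 24 regulatory T-like UMIs were in a cell with Ncr1 and no CD3 UMIs, and all 7 CD8 T-like UMIs were in 1 cell. Gamma-delta T-like cells (3.76 CPM, from 1 UMI) and undivided T-like cells (3.60 CPM, 1.32 to 7.84) came next, and 26 of 34 classes had no Xcl1 UMI. In the PBS library NK-like cells (566 CPM, 530 to 605) were followed by CD4 T-like cells (348 CPM, 306 to 394), and then by regulatory T-like cells (70.7 CPM, 57.7 to 85.7) and CD8 T-like cells (69.9 CPM, 59.4 to 81.8), which cannot be ordered against each other. Single cells held 234 of the 251 CD4 T-like, 51 of the 103 regulatory T-like and 76 of the 156 CD8 T-like PBS UMIs. PBS fibroblast-like cells had 14.8 CPM, but 14 of their 16 UMIs were in 1 cell, and treated fibroblast-like cells had 0 UMIs.

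NK-like cells of treated mice had less Xcl1, and few of them carried many of its UMIs. Treated NK-like cells held 77 Xcl1 UMIs in 30 of 169 cells and PBS NK-like cells 895 UMIs in 146 of 649 cells. The CPM ratio was 0.261 (0.204 to 0.330). In NK-like cells 1.68% of 5706 genes had a ratio of 0.5 or less, and 15 genes, Xcl1 among them, were at or below the Xcl1 value. The share of NK-like cells with a UMI was closer, 17.8% (12.3 to 24.4%) in treated and 22.5% (19.3 to 25.9%) in PBS cells, at median depths of 2540 and 1997 UMIs. After each cell was thinned to 1000 UMIs, which left out 1 treated and 29 PBS cells, the shares were 5.95% in treated and 15.6% in PBS cells. Cells with at least 5 Xcl1 UMIs were 2 of 169 (1.18%, 0.144 to 4.21%) in the treated library and 62 of 649 (9.55%, 7.40 to 12.1%) in PBS.

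Carrying cells held a median of 1 Xcl1 UMI in treated and 3 UMIs in PBS NK-like cells. Just 1 UMI was found in 23 of the 30 treated carriers and in 45 of the 146 PBS carriers. A treated cell with 27 UMIs held 35.1% of the treated NK-like total, against 3.69% for the leading PBS cell with 33 UMIs. Without these cells the ratio was 0.179, and with NK cells taken by a marker gate in place of clusters it was 0.393. NK-like cells were also a smaller part of the lung, 1.38% of treated and 5.13% of PBS cells, or 5.47% and 10.1% of immune cells other than neutrophil-like ones.

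**Figure D2:**
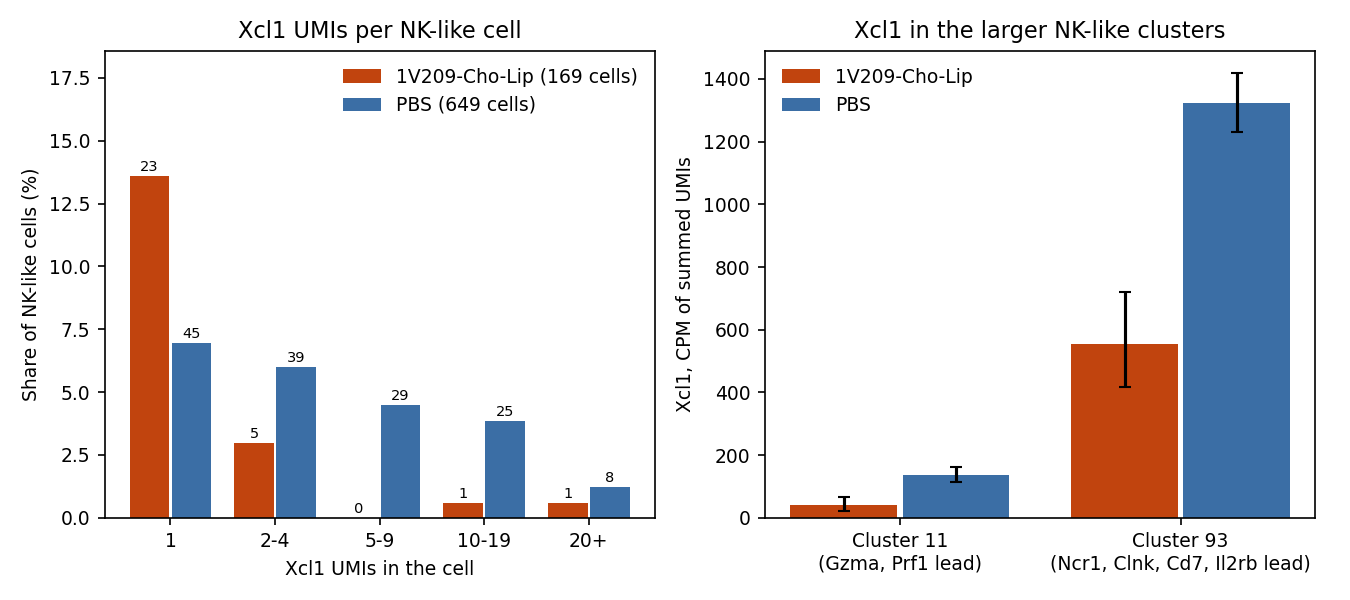
Left, share of NK-like cells (%) by their number of Xcl1 UMIs, with cell counts above the bars, and right, Xcl1 CPM in the larger NK-like clusters with exact Poisson 95% intervals, 1V209-Cho-Lip left of PBS in each pair. Cells with 5 or more UMIs numbered 2 with 1V209-Cho-Lip and 62 with PBS, and cluster 93 had 554 CPM with 1V209-Cho-Lip and 1322 CPM with PBS.

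NK-like cells came from 3 clusters, which differ in Xcl1 by their make-up, although neither member gene was used for clustering. Cluster 11, led by the killing genes Gzma (granzyme A) and Prf1 (perforin), had 130 treated and 482 PBS cells. Its Xcl1 level was 39.6 CPM (21.7 to 66.5) with 1V209-Cho-Lip and 137 CPM (114 to 163) with PBS, a ratio of 0.290 (0.154 to 0.503). Cluster 93, led by Xcl1 itself with Ncr1, Clnk, Cd7 and Il2rb, had 24 treated and 153 PBS cells. Its level was 554 CPM (418 to 722) with 1V209-Cho-Lip and 1322 CPM (1230 to 1419) with PBS, a ratio of 0.419 (0.313 to 0.552). Both clusters were thus lower in Xcl1 CPM with 1V209-Cho-Lip, and with them at equal cell shares in the libraries the ratio was 0.381. The share of cluster 11 cells with a UMI was not lower, 10.0% in treated and 8.51% in PBS cells (1.18, 0.578 to 2.24). After thinning it was 3.08% and 5.26%. A PBS cell held 30 of the 131 PBS UMIs of cluster 11. In cluster 93 the shares were 54.2% and 68.6% (0.789, 0.407 to 1.41), and 20.8% and 48.7% after thinning. Cluster 94 went the other way on few counts, with 8 UMIs in 15 treated cells and 0 UMIs in 14 PBS cells.

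Cluster 93 held more Itga1 and Thy1, Il7r and Tcf7, genes of tissue-resident or less mature NK and innate lymphoid cells, and less of the maturity genes Klrg1, S1pr5 and Zeb2. Itga1 was at 60.5 CPM (6 UMIs) in treated and 77.9 CPM (45 UMIs) in PBS cells of cluster 93. In cluster 11 it was at 5.66 CPM (2 UMIs) and 6.27 CPM (6 UMIs). Il7r, the IL-7 receptor chain, was at 232 CPM (23 UMIs) in treated and 284 CPM (164 UMIs) in PBS cells of cluster 93. In cluster 11 it was at 36.8 CPM (13 UMIs) and 17.8 CPM (17 UMIs). S1pr5, a receptor for leaving tissue, had 4 UMIs (40.3 CPM) in treated and 3 UMIs (5.19 CPM) in PBS cells of cluster 93, too few to compare the libraries. In cluster 11 it was at 133 CPM (47 UMIs) and 92.0 CPM (88 UMIs). These genes were chosen after their values had been seen, and they are genes of the cells that were clustered.

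PBS NK-like cells with an Xcl1 UMI (146 cells, median 2974 UMIs per cell) can be set beside those without (503 cells, median 1860 UMIs). The carriers had less Gzma, 3880 CPM against 12689 CPM, a ratio of 0.306 (0.292 to 0.320), and less Prf1, 461 CPM against 1447 CPM, a ratio of 0.319 (0.277 to 0.365). They also had less of the maturity genes Klrg1 (ratio 0.266, 0.181 to 0.379) and Zeb2 (0.267, 0.200 to 0.351). More abundant in carriers were Tnfrsf9, encoding the co-stimulatory receptor 4-1BB (3.91, 3.22 to 4.76), Thy1 (2.91, 2.20 to 3.85) and Cxcr6, a tissue-homing chemokine receptor (5.33, 2.50 to 12.3). Treated carriers (30 cells) showed smaller gaps for Gzma (0.683, 0.635 to 0.734) and Prf1 (0.772, 0.623 to 0.949). Thy1 CPM was higher in treated carriers (2.51, 1.59 to 3.93), but the share of cells with its UMIs was close, 16.7% of carriers and 15.8% of other cells. In PBS these Thy1 shares were 39.0% and 9.94%. Tnfrsf9 was higher in treated carriers in CPM (1.79, 1.25 to 2.55) and in share of cells, 56.7% and 28.1%. Cxcr6 had 1 UMI in treated carriers and 3 UMIs in the other treated cells (1.24, 0.0237 to 15.5). The chemokine gene Ccl5 was below 1 in both libraries, at 0.693 (0.655 to 0.734) in treated and 0.364 (0.350 to 0.378) in PBS carriers. Ccl4, Ccl3 and Nr4a1 lay on opposite sides of 1 in the 2 libraries. Ccl4 was at 1.97 (1.74 to 2.23) in treated and 0.731 (0.671 to 0.796) in PBS carriers, Ccl3 at 2.22 (1.298 to 3.73) and 0.679 (0.525 to 0.871), and Nr4a1 at 1.71 (1.37 to 2.12) and 0.859 (0.747 to 0.986), each relative to cells without Xcl1 of the same library. Treated carriers and other treated cells differed little in the share with Ccl3 UMIs, 23.3% and 20.9%, and in the share with Ccl4 UMIs. Carriers and other cells within a library are not replicates, and the depth of the cells differs with carriage. The carriers also came from the clusters in unlike parts. Cluster 93 held 105 of the 146 PBS carriers and 13 of the 30 treated carriers, and cluster 11 held 41 and 13. The part of this make-up in the ratios of carriers to other cells was not tested.

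Cytokines and chemokines that lymphocytes release with XCL1 were mixed in NK-like cells. Of 13 list members, 5 reached 50 UMIs, and 0 of these were past 2-fold either way (background 3.12% at 2 or more). Their median log2 ratio was -0.73, beside 0.02 over all genes. Ccl3 was at 128 CPM in treated and 213 CPM in PBS NK-like cells (ratio 0.605, 0.458 to 0.788), and Ltb, encoding lymphotoxin beta, was at 165 CPM and 326 CPM (0.506, 0.398 to 0.637). Ccl4 went the other way, with 2131 CPM in treated and 1720 CPM in PBS cells (1.24, 1.15 to 1.33), and so did Ccl5, with 17496 CPM and 13402 CPM (1.31, 1.27 to 1.34). Ifng had 14 UMIs in treated and 76 in PBS NK-like cells (0.559, 0.292 to 0.996). Csf2, a growth factor gene for myeloid cells, had 0 UMIs in treated cells and 32 UMIs in 5 PBS cells, 22 of them in 1 cell.

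Activation genes were close between the libraries in NK-like cells. Of 22, 16 were measured, 1 was at 2 or more and 0 at 0.5 or less, with a median log2 ratio of -0.03. Of all genes in NK-like cells 3.12% were at 2 or more and 1.68% at 0.5 or less, so such counts in short lists say little. The exception was the immediate-early gene Egr1, at 265 CPM in treated and 67.1 CPM in PBS cells (3.95, 3.04 to 5.13). Nr4a1, an early reporter gene of receptor signalling, was at 752 CPM in treated and 616 CPM in PBS cells (1.22, 1.08 to 1.38). Irf8 (ratio 1.26) and Nr4a2 (1.24) were also above 1, and Bhlhe40 (0.837) and Spry2 (0.758, the lowest of the list) below it. The identity and killing genes were also close: of 21 receptors and effectors, 16 were measured and 0 were past 2-fold (median log2 ratio 0.07), with Ncr1 at 1176 CPM in treated and 1119 CPM in PBS cells (1.05, 0.958 to 1.15) and Prf1 at 1232 CPM and 1115 CPM (1.10, 1.01 to 1.21). Gzma (1.12), Gzmb (1.23, the highest) and Nkg7 (1.03) were near 1 as well, and the lowest was the receptor gene Klra4 (0.554, 0.310 to 0.936). Xcl1, at a ratio of 0.261, lay below each measured gene of these 3 lists.

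Maturation and residency genes were mixed in NK-like cells. Of 20, 18 were measured, 2 (Cx3cr1 and Kit) were at 2 or more and 1 at 0.5 or less, beside 3.12% and 1.68% of all genes, with a median log2 ratio of 0.25. With TMM scaling, and with called doublets kept, 1 was at 2 or more. Cx3cr1, a receptor of mature circulating NK cells, was at 61.4 CPM in treated and 18.4 CPM in PBS cells (3.35, 1.96 to 5.73). Itga1, a residency integrin, was at 17.3 CPM in treated and 34.8 CPM in PBS cells (0.496, 0.216 to 1.01). Among the members with most UMIs Ly6c2 was at a ratio of 1.52, Zeb2 at 1.05 and Itga2 at 1.02. The list of cDC1 signals to lymphocytes and their receptors had 7 of 18 members measured, 0 at 2 or more and 1, a signal and not a receptor, at 0.5 or less (median log2 ratio -0.05). Of its receptor genes Il2rb was at a ratio of 1.08, Il2rg at 0.856 and Il18rap at 1.18, and Il12rb2, a chain of the IL-12 receptor, was at 900 CPM in treated and 853 CPM in PBS cells (1.06, 0.948 to 1.17). The single member at 0.5 or less was Cxcl10, a chemokine induced by interferon, with 1 UMI in treated cells and 68 UMIs in 16 PBS cells (0.0446, 0.00111 to 0.257). Of 8 other chemokine receptors 5 were measured and 2, Cx3cr1 and Ccr7, were at 2 or more (median log2 ratio 0.24). Ccr2 was at 128 CPM in treated and 245 CPM in PBS cells (0.525, 0.399 to 0.682), and Ccr7 at 72.9 CPM and 25.9 CPM (2.81, 1.76 to 4.48), with 21 of its 38 treated UMIs in 1 cell. Cxcr4 was at a ratio of 1.18.

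In CD8 T-like cells Xcl1 came from very few cells in either library. It had 7 UMIs in 1 of 237 treated cells and 156 UMIs in 30 of 690 PBS cells, which is 7.27 CPM and 69.9 CPM, a ratio of 0.104 (0.0411 to 0.219). The background was 1.77% of 6481 genes at 0.5 or less, with 6 genes, Xcl1 included, at or below its ratio. The share of cells with a UMI was 0.422% (0.0107 to 2.33%) in treated and 4.35% (2.95 to 6.15%) in PBS cells, and 0.429% and 2.44% after thinning. A PBS cell with 76 UMIs held 48.7% of the PBS total, and it had 4 Ncr1 UMIs beside 2 Cd8a and 4 Cd8b1 UMIs. The treated value is 1 cell with Cd3e and Ncr1 UMIs and no Cd8a or Cd8b1 UMI, so without the leading cell of each library treated CD8 T-like cells had 0 Xcl1 UMIs. With another random seed for the clustering the ratio was 0.278, and with cells of at least 1000 UMIs it was 0.254.

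The CD8 T-like class differed in make-up. Cluster 80, with the naive-cell genes Lef1, Dapl1 and Il7r among its leading genes, had 130 treated and 286 PBS cells, and 0 treated and 7 PBS Xcl1 UMIs. Cluster 21, led by Gzmk, had 5 treated and 142 PBS cells, with 0 and 17 Xcl1 UMIs. Cluster 118, led by Gzmk and with Xcl1 among its leading genes, had 26 treated and 96 PBS cells and held 7 treated and 111 PBS UMIs, which is 58.9 CPM and 334 CPM. In this cluster 7 of 10 NK markers and 6 of 6 CD8 T markers were at log2 1 or more above other cells. Cluster 120, with the interferon-induced genes Mx1 and Ifit3 among its leading genes, was found in PBS alone, with 26 cells and 20 UMIs.

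Some co-released and killing genes were also at 0.5 or less in CD8 T-like cells, where 1.77% of all genes were. The NK markers summed to 175 CPM with Klra4, Klra8 and Klra9 at 0 in treated and to 526 CPM with Klra8 and Klra9 at 0 in PBS cells (0.334, 0.282 to 0.392). Except for Eomes these markers are also in the list of receptors and effectors, and their part in these ratios and in that of Xcl1 was not tested. The part of the differing cluster make-up of the class in these list ratios was not tested either. Of 13 co-released genes 4 were measured and 3 were at 0.5 or less, with a median log2 ratio of -2.04, beside 0.00 over all genes. Ifng had 5 UMIs in 3 of 237 treated cells and 61 UMIs in 38 of 690 PBS cells (0.190, 0.0595 to 0.468). Ccl5 was at 1184 CPM in treated and 3796 CPM in PBS cells (0.312, 0.293 to 0.332), and Ccl4 at 29.1 CPM and 158 CPM (0.184, 0.120 to 0.270). Ltb, the fourth, was at 0.744 (0.658 to 0.840). Of 21 receptors and effectors 13 were measured and 5 were at 0.5 or less, among them granzyme B, Gzmb, at 21.8 CPM in treated and 123 CPM in PBS cells (0.177, 0.108 to 0.276). Cd8a (0.732), Cd8b1 (0.735), Ctsw (0.647) and Nkg7 (0.506) were below 1, and Klrd1 (1.04, 0.879 to 1.24) was the highest. Of 22 activation genes 16 were measured and 3 were at 0.5 or less, Cd69 (0.450, 0.362 to 0.555), Bhlhe40 (0.419, 0.292 to 0.589) and Pdcd1 (0.284, 0.164 to 0.464). The other 13 lay above 0.5, with Nr4a1 at 184 CPM in treated and 178 CPM in PBS cells, Nr4a2 at a ratio of 0.742, Nr4a3 at 0.792, and Egr1 the highest, at 89.3 CPM in treated and 46.6 CPM in PBS cells (1.92, 1.42 to 2.57). Of 18 genes for cDC1 signals and their receptors 9 were measured and 3 were at 0.5 or less (median log2 ratio -0.44). They were Cxcl10 (0.180, 0.0941 to 0.317), Cxcr3 and Cxcr6, while Il2rb (0.740), Il2rg (0.873), Il18r1 (0.650) and Il27ra (0.936) lay above 0.5. Of 8 other chemokine receptors 6 were measured and 3 were at 0.5 or less (median log2 ratio -0.69), with Cxcr4 at a ratio of 0.859. The chemokine receptor Cxcr3 was at 29.1 CPM in treated and 86.9 CPM in PBS cells (0.334, 0.217 to 0.499), and Ccr7, which marks naive and central memory T cells, at 1087 CPM and 894 CPM (1.22, 1.13 to 1.31).

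Several of the cells richest in Xcl1 carried markers that go against their class. The PBS cell with the most Xcl1 had 234 UMIs, 15.1% of the PBS total, and lay in the CD4 T-like cluster, but it had 9 Cd8a, 5 Cd8b1 and 0 Cd4 UMIs. CD4 T-like cells had 0 Xcl1 UMIs in 62 treated cells, which allows a share of up to 4.84%, and 251 UMIs in 6 of 258 PBS cells, 234 of them in that cell. Regulatory T-like cells had 24 UMIs in 3 of 181 treated cells and 103 UMIs in 9 of 340 PBS cells, of which 21 and 100 were in cluster 49, led by dividing-cell genes such as Mki67 and Top2a. The richest cluster 49 cells, with 18 UMIs (1V209-Cho-Lip) and 51 UMIs (PBS), had 11 and 7 Ncr1 UMIs and 0 UMIs of Cd3e, Cd3d and Cd3g. Undivided T-like cells had 6 UMIs in 5 of 528 treated cells and 33 UMIs in 18 of 1014 PBS cells.

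Sorting all kept cells by their own marker UMIs in place of clusters gave the same direction in each group. This split was chosen after the data had been seen. Cells with a UMI of the NK receptor genes Ncr1, Klre1 or Klrb1c and none of Cd3e, Cd3d or Cd3g had 100 Xcl1 UMIs in 173 treated cells and 789 UMIs in 664 PBS cells, which is 140 CPM and 403 CPM, a ratio of 0.347 (0.279 to 0.428). Cells with both NK receptor and CD3 UMIs had 8 UMIs in 30 treated cells and 350 UMIs in 116 PBS cells, which is 53.0 CPM and 480 CPM (0.110, 0.0473 to 0.220). Cells with CD3 and CD8 but no NK receptor UMIs had 6 UMIs in 274 treated cells and 285 UMIs in 742 PBS cells (0.0485, 0.0177 to 0.107). Without the leading cell of each library the last ratio was 0.138 (0.0276 to 0.427), that of cells with both markers 0.0182 (0.000458 to 0.102), and that of NK receptor cells without CD3 0.274 (0.212 to 0.348).

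Xcr1 was a cDC1 gene in both libraries. The cDC1-like class was 1 cluster of 35 treated and 46 PBS cells and held 88.4% of treated and 70.3% of PBS Xcr1 UMIs. The cluster was named by a list of 12 cDC1 markers, from which Xcr1 was left out, and all 12 were higher in it than in other cells. Xcr1 had 99 UMIs in 19 of 35 treated cells and 90 UMIs in 26 of 46 PBS cells, which is 310 CPM (252 to 378) and 232 CPM (187 to 286), a ratio of 1.33 (0.993 to 1.80). In cDC1-like cells 5.28% of 1969 genes were at 2 or more, and 370 genes, Xcr1 included, were at or above its ratio. The share of cells with a UMI was 54.3% (36.7 to 71.2%) in treated and 56.5% (41.1 to 71.1%) in PBS cells, and after thinning it was 7 of 35 treated and 6 of 46 PBS cells. With called doublets kept the CPM ratio was 0.987, on the other side of 1.

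Carrying cells had a median of 6 Xcr1 UMIs with 1V209-Cho-Lip and 2 UMIs with PBS. Cells with 5 or more UMIs were 11 of 35 (31.4%, 16.9 to 49.3%) with 1V209-Cho-Lip and 8 of 46 (17.4%, 7.82 to 31.4%) with PBS, and the highest cells had 11 and 13 UMIs. With 1 library per group these shares and medians could not be tested. The cDC1-like cells were 0.285% of treated and 0.364% of PBS cells (ratio 0.785, 0.491 to 1.25), or 1.13% and 0.718% of immune cells other than neutrophil-like ones (1.58, 0.987 to 2.50). Both intervals include 1.

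**Figure D3:**
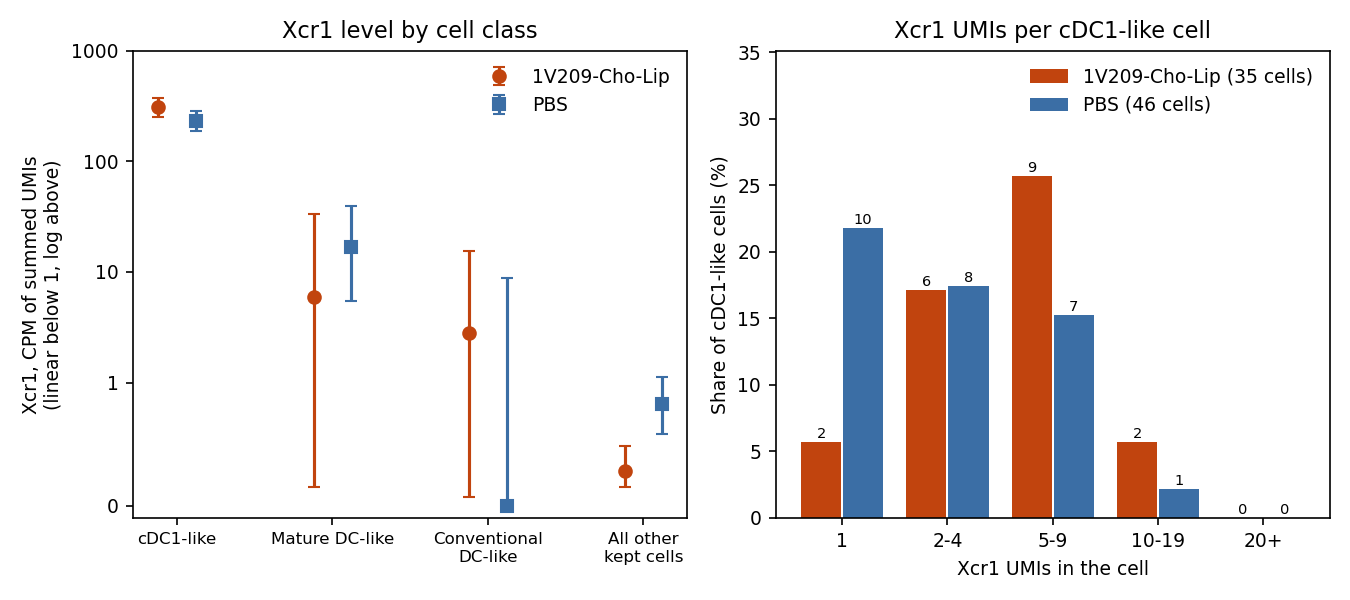
Left, Xcr1 level (CPM of summed UMIs, axis linear below 1 and logarithmic above) with exact Poisson 95% intervals in dendritic cell classes and all other kept cells, and right, share of cDC1-like cells (%) by their number of Xcr1 UMIs with cell counts above the bars, 1V209-Cho-Lip left of PBS in each pair. The cDC1-like cells were highest in both libraries, at 310 CPM with 1V209-Cho-Lip and 232 CPM with PBS, and their intervals overlap.

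Outside cDC1-like cells Xcr1 was rare, with 13 UMIs in 7 of 12230 treated cells and 38 UMIs in 17 of 12608 PBS cells. Mature dendritic-like cells, which carry Ccl22 and Fscn1, had 1 UMI in 20 treated cells and 5 UMIs in 42 PBS cells. A mixed cluster of plasma-cell and dendritic markers had 8 UMIs in 2 of 20 treated cells and 21 UMIs in 2 of 26 PBS cells. NK-like, CD8 T-like and undivided T-like cells had 0 Xcr1 UMIs in both libraries.

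Most measured genes of the cDC1 identity list lay within 2-fold between the libraries in CPM. Of 22 identity genes 17 were measured, 1 was at 2 or more and 0 at 0.5 or less, beside 5.28% and 2.29% of all genes. Their median log2 ratio was 0.04, beside -0.04 over all genes. Clec9a, the receptor for dead cells, was at 426 CPM in treated and 364 CPM in PBS cells (1.17, 0.918 to 1.49). Batf3, the transcription factor needed for cDC1 development, had 17 and 34 UMIs (0.607, 0.318 to 1.12), and Irf8, needed with it, was at 811 CPM in treated and 919 CPM in PBS cells (0.883, 0.749 to 1.04). The share of cells with Irf8 UMIs differed more, 62.9% of treated and 87.0% of PBS cells. For Itgae the shares went the other way, 80.0% and 58.7%. Cadm1 was at a ratio of 1.545 (1.19 to 2.01). Wdfy4, needed for cross-presentation, was at a ratio of 0.887, Naaa at 1.26 and Ppt1 at 0.941. The highest ratio was that of Gpr141b, at 119 CPM in treated and 59.4 CPM in PBS cells (2.004, 1.16 to 3.52).

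Of 12 cross-presentation genes 9 were measured and 1 was at 0.5 or less (background 2.29%), with a median log2 ratio of -0.31. That gene was Cybb, the NADPH oxidase chain, with 14 UMIs in treated and 79 UMIs in PBS cells, 53 of the PBS UMIs in 1 cell. B2m, the light chain of class I molecules, was at a ratio of 0.825 and the peptide-loading gene Tapbp at 0.809, and Clec9a, at 1.17, was the highest of the list. Of 18 genes for signals to lymphocytes and their receptors 2 were measured in cDC1-like cells, the T cell-attracting chemokines Cxcl9 and Cxcl16, with a median log2 ratio of 0.78 and 0 past 2-fold. Cxcl9 was at 335 CPM in treated and 194 CPM in PBS cells (1.73, 1.28 to 2.36), with 53 of 107 treated and 40 of 75 PBS UMIs in 1 cell each. Cxcl16 was at 439 CPM in treated and 256 CPM in PBS cells (1.72, 1.32 to 2.24). Il12b, a chain of IL-12, had 1 UMI in treated cells and 37 UMIs in 8 PBS cells, 27 of them in 1 cell, too few for the list. Of 8 other chemokine receptors 3 were measured and 1 was at 0.5 or less (median log2 ratio -0.49). That was Ccr7, which guides dendritic cells to lymph nodes, at 65.8 CPM in treated and 145 CPM in PBS cells (0.455, 0.262 to 0.763). Ccr2 was at a ratio of 0.711 and Cxcr4 at 1.12.

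**Figure D4:**
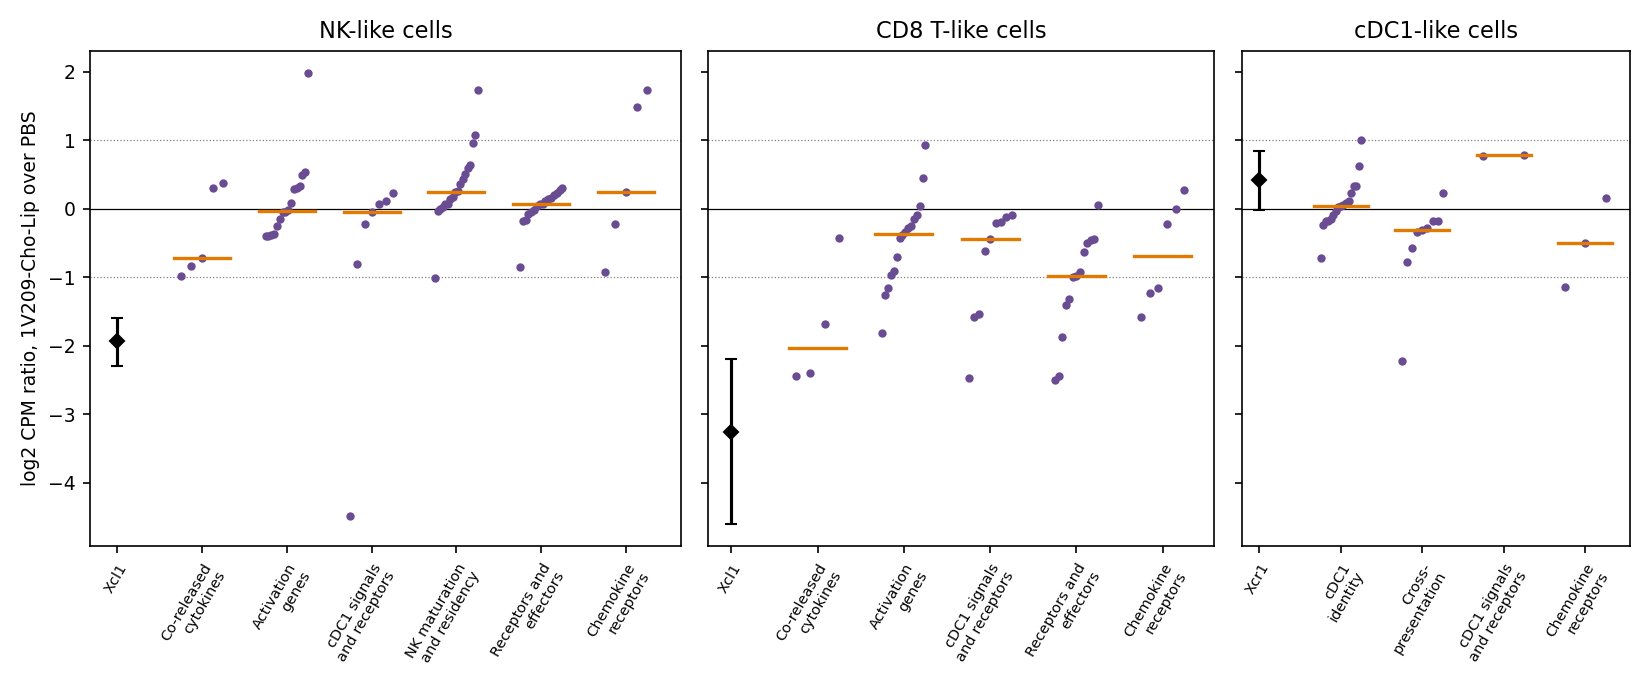
Log2 CPM ratio of 1V209-Cho-Lip over PBS for the member gene (diamond, with its exact 95% interval) and for genes of each list with at least 50 UMIs (points, with the list median as a bar) in NK-like, CD8 T-like and cDC1-like cells, with dotted lines at 2-fold. In NK-like cells Xcl1 (ratio 0.261) lay below all list genes but Cxcl10 (0.0446), and in cDC1-like cells Xcr1 (1.33) lay among them.

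Over classes, the genes whose levels followed Xcl1 most closely were lymphocyte receptor and protease genes. Over 44 sums (22 classes of 50 or more cells per library, 2 libraries), Pearson's r of log2(CPM + 1) with Xcl1 was 0.83 for Ctsw, a protease of killer cells, 0.81 for the inhibitory receptor gene Tigit, 0.80 for Klrd1 and for Klrg1, and 0.79 for Cd7. For Xcr1, over 48 sums of 24 classes of 30 or more cells per library, it was 0.99 for Cd207, a lectin of cDC1 and Langerhans cells, 0.93 for Septin3, 0.79 for Strip2, 0.78 for Clec9a and 0.72 for Dnase1l3. Xcr1 had no UMI in 27 of 34 classes of each library, so its values of r rest mainly on the 2 cDC1-like sums. The minimum of 30 cells lets in that class. The sums of a library share its preparation, and those of a class in the 2 libraries share the cell type, so these are descriptions.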

How the data were processed

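Lungs of 3 mice per group were pooled into 1 10x Genomics library for 1V209-Cho-Lip and 1 for PBS, per the labels and the series description, which also mention total RNA extraction. The authors deposited UMI counts per gene and barcode, made with Cell Ranger 9.0.1 per the file headers and on mm10 per the submitters' processing notes. The annotation release, the chemistry and the use of strand in counting were not given in the sources used here, so reads of Xcl1 and its antisense partner cannot be told apart. Of 55357 gene identifiers, 52081 matched GENCODE vM21, which gave positions.

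Barcodes with under 500 UMIs or 200 genes, or over 20% mitochondrial UMIs, were left out. Scrublet calls (expected 0.8% per 1000 barcodes) removed 10.6% of treated and 13.1% of PBS barcodes. Kept cells had 46108049 and 46481928 UMIs. Cells were clustered on 2899 variable genes without Xcl1 and Xcr1 (30 components, 15 neighbours, Leiden resolution 2, with 21 of 76 clusters divided again at 0.5), giving 141 clusters, 18 of them mixed and 22 unnamed. A name needed at least 3 markers and 50% of a type's markers at log2 1 or more above the rest. The limits that set mixed clusters apart (other-lineage markers at 75%, erythroid markers at mean log2 4, NK markers in T clusters) and the rule on leading genes were set after clusters and their Xcl1 counts had been seen. The members, lists and comparisons were chosen with earlier results of these data known.

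Counts were summed per class and scaled to CPM. With 1 library per group there was no test. Lists and background used genes with at least 50 UMIs over both libraries, and a fold of 2 or 0.5. List genes named are the 4 with the most UMIs and the highest and lowest ratio, except for some not reported here, and any other named gene was chosen after its values were seen. The lists, named as they were written, covered co-released cytokines, activation, cDC1 signals and receptors, NK maturation, receptors and effectors, chemokine receptors, cDC1 identity and cross-presentation. Counts of 0 were given 0.5 for list medians, and a limit for 0 is 3 counts. The Xcr1 minimum of 30 cells was set after counts were seen. The computation was tested on simulated Poisson counts. Alternatives were doublets kept, other depths, resolutions and seeds, marker gates, thinning to 1000 UMIs and other scalings. Scanpy 1.11.5 ran Scrublet, igraph 0.11.9 ran Leiden, and scikit-learn 1.9.0, scipy 1.17.1, pandas 2.3.3 and numpy 2.4.6 the rest, in Python 3.11.15, with figures by matplotlib 3.10.9.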

Additional observations from a re-analysis of the deposited data

How the results depend on the processing

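Of 108 alternative values for the main results 76 stayed within their counting interval, or within 1.5 times for shares of genes, and none of the others that had an interval off 1 changed direction. The whole-library Xcl1 ratio (0.0800) was 0.0512 after thinning to 1000 UMIs, 0.0985 without neutrophil-like cells and 0.195 with class shares set equal, and that of Xcr1 (0.882) was 1.43 after thinning. In NK-like cells the Xcl1 ratio (0.261) was 0.393 with a marker gate, 0.179 after thinning, 0.179 without the leading cell of each library and 0.381 with clusters 11 and 93 at equal shares, and the ratio of carrying shares (0.789) was 0.381 after thinning. In CD8 T-like cells it (0.104) was 0.254 with cells of at least 1000 UMIs and 0.278 with another random seed. The Xcr1 ratio in cDC1-like cells (1.33) was 0.987 with called doublets kept. The carrier ratio (3.501) was 11.9 after thinning and 8.81 at 2 UMIs or more. Both Xcr1 ratios, whose intervals include 1, thus moved across 1. Scaling by TMM or median of ratios left each member's ratio within its interval. The cause of each shift was not tested.

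The shares of genes past 2-fold moved with the UMI minimum and scaling, in % of genes. At 0.5 or less they were 11.3 (at least 1 UMI) and 3.46 (TMM) in the whole library, 4.20, 0.786 and 7.21 in NK-like cells (20, 100 and 1 UMI), 3.57 and 8.37 in CD8 T-like cells (20 and 1 UMI), and 6.34, 1.18, 15.1 and 1.42 in cDC1-like cells (20, 100 and 1 UMI, TMM). At 2 or more they were 15.8 in the whole library (1 UMI), 5.35, 1.94 and 16.9 in NK-like cells (20, 100 and 1 UMI), 4.79 and 18.3 in CD8 T-like cells (20 and 1 UMI) and 20.6 in cDC1-like cells (1 UMI). List counts past 2-fold changed in 21 of 120 cases, each by 1 or 2 genes.

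No cDC1-like class formed at Leiden resolution 1 or 3, and no CD8 T-like ratio exists without the leading cells. No paired analysis was possible because each group is 1 library, and leaving out a library leaves no group. With 35 and 46 cDC1-like cells, depth limits Xcr1 to differences larger than its interval.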
